A study of Mus musculus with 6 samples.

Results

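The 8 members are transcription factors known from the making of olfactory bulb interneurons: Meis2, Pbx3, Pax6, Etv1, Sp8, Tshz1, Zic1 and Zic2. They were followed through single cells of the adult mouse olfactory bulb. All 8 were taken by name and found among the 18560 genes of the count table. The table held 51426 cells with a cluster from 6 libraries, among them 21746 neurons in 18 clusters and 16302 adult-born neurons in 12 of these. All mice were C57BL/6NJ of 14 weeks of age, and each library was a pool of 3 mice, with males in replicate 1 and females in replicate 2 of each group. The 3 groups had 2 libraries each: control mice without manipulation, naris occluded mice, in which 1 nostril was plugged to deprive the bulb of odor input, and trained mice, which learned to tell odors apart. The manipulations lasted 6 weeks. For the controls the sources differ, giving both bulbs left without manipulation and the open side of occluded animals. The dissected bulbs carried some cells of the olfactory epithelium, and the bulb holds interneurons born before and after birth, which cluster names do not tell apart.

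Granule cells and periglomerular cells are the GABAergic interneurons of the bulb. They are renewed through life from stem cells of the subventricular zone, and the place of a stem cell sets much of the type its progeny will take. Transcription factors carry that identity into the migrating neuroblast and then into the mature cell. Meis2 and Pbx3 are homeodomain proteins of the TALE class, which bind DNA as partners of other factors. Pax6 holds a paired domain and a homeodomain and is needed for dopaminergic periglomerular cells. Etv1 (also called Er81) is an ETS factor linked to dopaminergic and superficial granule cells. Sp8 is a zinc finger protein needed for calretinin periglomerular cells, Tshz1 is a zinc finger protein needed for neuroblasts to spread through the bulb, and Zic1 and Zic2 are zinc finger proteins known from progenitors of the septal side and from calretinin cells.

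The libraries held 6705 to 10570 cells and 11841160 to 17065083 unique molecular identifiers (UMIs, counts of captured mRNA molecules). The median cell had 1028 to 1723.5 UMIs, and the median share of mitochondrial UMIs was 9.25% to 14.4%. The barcode of 2956 cells also occurred in another library. The start of the cell names gave the trained libraries the opposite numbers to the library column, which was followed here. By that column Xist, the RNA of the inactive X chromosome, had 0 to 5 UMIs in the replicate 1 libraries and 20000 to 27904 in the replicate 2 libraries. Ddx3y, on the Y chromosome, had 1116 to 1201 and 0.

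For 3 members that lead the results below, the 250 bases before the first RefSeq start site listed are shown, from assembly GRCm38.p6, which is mm10. Pax6 and Etv1 are shown because their levels went together over the interneuron clusters, and Zic1 because its start faces that of Zic4, the gene with the most similar pattern. Capitals mark matches on either strand to 6 short motifs: TATAAA of the TATA box, CCAAT of the CCAAT box, GGGCGG of the GC box, TGACGTCA of the cyclic AMP response element, TGACAG as bound by Meis proteins and TAATTA as bound by homeodomain proteins. They are a set chosen after these letters had been seen.
Pax6, chr2:105668646-105668895, plus strand: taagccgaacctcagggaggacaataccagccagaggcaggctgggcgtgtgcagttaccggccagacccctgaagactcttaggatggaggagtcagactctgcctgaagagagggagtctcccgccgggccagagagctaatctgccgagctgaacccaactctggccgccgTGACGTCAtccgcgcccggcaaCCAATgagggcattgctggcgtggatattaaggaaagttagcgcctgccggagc
Etv1, chr12:38779832-38780081, plus strand: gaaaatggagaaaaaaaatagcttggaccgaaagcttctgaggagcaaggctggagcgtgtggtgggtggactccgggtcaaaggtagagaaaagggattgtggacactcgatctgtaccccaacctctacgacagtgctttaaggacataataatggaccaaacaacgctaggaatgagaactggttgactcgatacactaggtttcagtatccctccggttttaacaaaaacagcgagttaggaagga
Zic1, chr9:91365769-91366018, minus strand: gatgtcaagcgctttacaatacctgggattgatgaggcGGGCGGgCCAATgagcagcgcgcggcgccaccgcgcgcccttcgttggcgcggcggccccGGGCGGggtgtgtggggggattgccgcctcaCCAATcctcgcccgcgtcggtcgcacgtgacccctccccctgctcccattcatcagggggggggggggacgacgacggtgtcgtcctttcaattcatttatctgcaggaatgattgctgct
The Zic1 stretch held 2 matches to GGGCGG and 2 to CCAAT, the Pax6 stretch 1 to TGACGTCA, which reads the same on both strands, and 1 to CCAAT, and the Etv1 stretch none. Pax6 and Etv1 have 2 listed start sites each, and before the second, not printed, Etv1 had 1 match to TATAAA and Pax6 1 to TGACAG and none to TGACGTCA or CCAAT. Over 32851 such stretches of the same length, GGGCGG was found in 32.7%, CCAAT in 33.8% and TGACGTCA in 1.55%, TATAAA in 12.4%, TGACAG in 15.9% and TAATTA in 4.84%. A match is a run of letters and not a measured binding site.

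Every granule and periglomerular cluster expressed some of the factors. Meis2, Tshz1 and Pbx3 were high together in the Calb1 periglomerular cluster n08-PGC-3 and in 2 of the granule clusters. Sp8, Etv1, Zic1 and Zic2 were high together in the calretinin clusters n02-PGC-1 and n03-GC-1, and Pax6 with Etv1 in the dopaminergic cluster n05-PGC-2. In sums over their cells, other granule clusters joined factors of both kinds. Examples were Meis2 and Tshz1 with Zic1 in n09-GC-3 or with Sp8 in n11-GC-5 and n12-GC-6. Levels are given as CPM: the UMIs of a gene summed over the cells of a cluster in a library, divided by the UMIs of all genes there and scaled to 1e+06. A factor was called high in a cluster when its CPM lay above the median of the 10 granule and periglomerular clusters in each of the 6 libraries, low when below in each, and otherwise variable. By this rule no more than 5 clusters can be high for a factor. Of 80 pairs of factor and cluster, 29 were high and 27 low, and 8 of the 10 clusters had a set of high factors that no other cluster had. When high was taken to need 1.5 times the median in every library, 12 pairs remained and 5 clusters kept a set of their own: Etv1, Sp8, Zic1 and Zic2 in n02-PGC-1, Sp8, Zic1 and Zic2 in n03-GC-1, Pax6 and Etv1 in n05-PGC-2, Tshz1 in n08-PGC-3, and Tshz1 and Zic1 in n09-GC-3. Every Meis2 and Pbx3 call was then lost, and with it the combination of Meis2, Tshz1 and Pbx3, and the other 5 clusters were high for no factor. The median of Zic2 over the 10 clusters was 0 in every library, so its 2 pairs pass with any UMI in each library and no margin applies to them. Since the clustering used these very expression values, the levels are a description and carry no test.

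**Figure D1:**
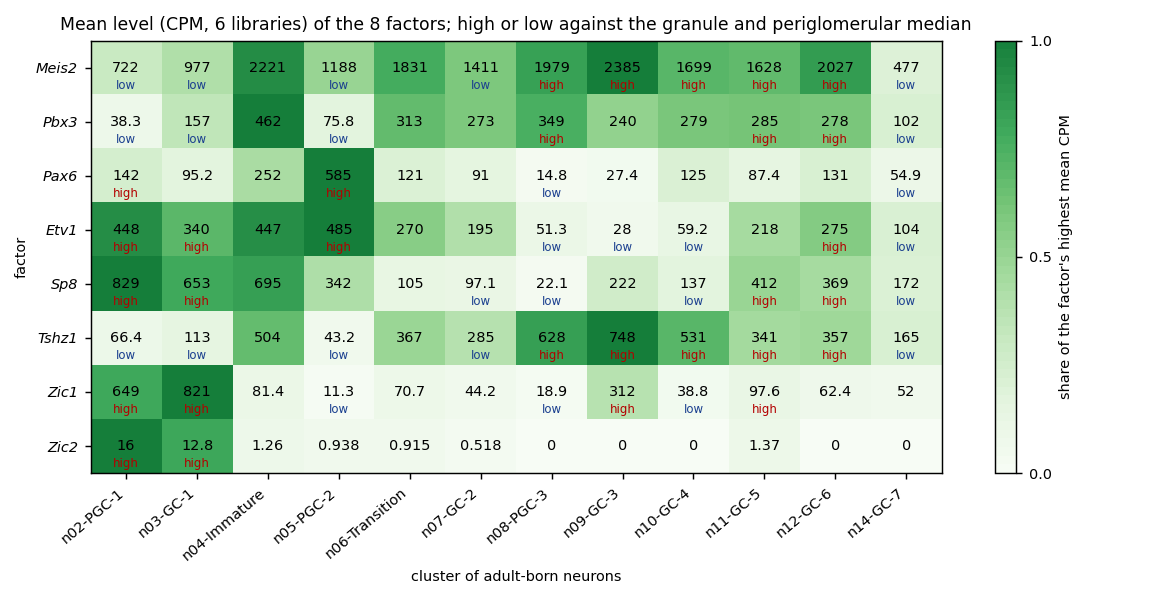
Mean level in CPM over 6 libraries of the 8 factors (rows) in the 12 clusters of adult-born neurons (columns), with the color as a share of the highest mean in the row. The words high and low mark factors above or below the median of the 10 granule and periglomerular clusters in every library, such as Tshz1, high in 5 clusters and low in the other 5.

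The periglomerular, calretinin and immature clusters carried the markers of their names. Th, the rate-limiting enzyme of dopamine synthesis, was 1277 ± 225 CPM in n05-PGC-2 (SD over 6 libraries, as for every ± on a level below). Calb1 (calbindin) was 809 ± 203 CPM in n08-PGC-3. Calb2 (calretinin) was 6489 ± 677 CPM in n02-PGC-1 and 13129 ± 2397 CPM in n03-GC-1. Dcx, a microtubule protein of migrating neuroblasts, was 907 ± 53.5 CPM in n04-Immature. The granule cell gene Tpbg was highest in n14-GC-7, at 455 ± 64.7 CPM, followed by n12-GC-6 with 410 ± 54.1 CPM. Other genes of granule cells peaked elsewhere, Penk in n07-GC-2 (447 ± 76.7 CPM) and Pcp4 in n11-GC-5 (6900 ± 573 CPM). In n03-GC-1, named a granule cluster, Tpbg, Penk and Pcp4 were 7.07 ± 3.62, 40.7 ± 10.9 and 481 ± 187 CPM. In n02-PGC-1 they were 8.86 ± 5.62, 34.5 ± 12.2 and 377 ± 109 CPM, so they did not set these clusters apart. Cluster n09-GC-3 had Gad1, the GABA-synthesizing enzyme, at 285 ± 76.0 CPM, close to the 290 ± 35.3 CPM of n04-Immature and below the other 9 interneuron clusters. Its Gad2, the second such enzyme, was the lowest of all 18 clusters, at 46.8 ± 27.3 CPM against 49.1 ± 18.1 CPM in the olfactory sensory neurons n01-OSNs, and its Sox11, a factor of immature neurons, was 232 ± 55.3 CPM, behind only the 2085 ± 98.4 CPM of n04-Immature. Slc32a1, the vesicular GABA transporter, was 222 ± 58.1 CPM there, close to the 232 ± 11.6 CPM of n03-GC-1. Gad1, Gad2 and Sox11 go against the granule cell name of n09-GC-3, which is used here as the name in the file. Other markers were mixed. Its Dcx was 134 ± 52.8 CPM, below the 324 ± 66.4 CPM of n07-GC-2. Tpbg and Penk were low there, at 10.2 ± 12.2 and 16.7 ± 26.2 CPM. Pcp4 was 1585 ± 249 CPM, above the periglomerular clusters, the highest of which was n08-PGC-3 with 597 ± 150 CPM.

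Meis2 was highest in n09-GC-3, at 2385 ± 442 CPM, with a lowest library of 1756, a median of 2336 and a highest of 2954 CPM. The immature neurons of n04-Immature followed with 2221 ± 168 CPM, then n12-GC-6 with 2027 ± 113 CPM and n08-PGC-3 with 1979 ± 391 CPM. These clusters overlapped: each was above the next in only 4 of 6 libraries. From n11-GC-5 down the order was clear, and n11-GC-5 (1628 ± 84.5 CPM), n07-GC-2 (1411 ± 89.6 CPM), n05-PGC-2 (1188 ± 98.4 CPM), n03-GC-1 (977 ± 95.7 CPM) and n02-PGC-1 (722 ± 33.5 CPM) each stood above the next in 6 of 6 libraries. The lowest of the adult-born clusters, n14-GC-7, had 477 ± 92.4 CPM. Meis2 was the most even of the 7 factors with UMIs in every cluster: its highest mean among the 12 clusters was 5.0 times its lowest.

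Pbx3, the other TALE factor, peaked in n04-Immature at 462 ± 65.4 CPM, from 373 to 570 CPM. In the periglomerular clusters it ran from 349 ± 94.7 CPM in n08-PGC-3 to 75.8 ± 22.0 CPM in n05-PGC-2 and 38.3 ± 8.79 CPM in n02-PGC-1, so that the calbindin cluster lay above both others in every library. Among granule clusters, n07-GC-2, n10-GC-4, n11-GC-5 and n12-GC-6 had between 273 and 285 CPM and no constant order. In n03-GC-1 Pbx3 was 157 ± 31.0 CPM.

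Tshz1 was highest in n09-GC-3, at 748 ± 122 CPM, with libraries from 511 to 840 CPM and a median of 792 CPM. Next came n08-PGC-3 with 628 ± 69.8 CPM and n10-GC-4 with 531 ± 125 CPM. Cluster n08-PGC-3 was above n10-GC-4 in 6 of 6 libraries and below n09-GC-3 in 5 of 6. Tshz1 was low in the calretinin and dopaminergic clusters, with 113 ± 22.1 CPM in n03-GC-1, 66.4 ± 18.3 CPM in n02-PGC-1 and 43.2 ± 21.5 CPM in n05-PGC-2. It was high in exactly the 5 clusters where Meis2 was high.

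Pax6 stood out in 1 cluster. In n05-PGC-2 it was 585 ± 127 CPM, with a lowest library of 441, a median of 551 and a highest of 768 CPM. Immature neurons came next with 252 ± 19.9 CPM and were below n05-PGC-2 in 6 of 6 libraries. The calretinin periglomerular cluster n02-PGC-1 had 142 ± 28.1 CPM, the only other cluster where Pax6 was high. Its mean lay near those of 2 granule clusters where Pax6 was variable, n12-GC-6 (131 ± 66.7 CPM) and n10-GC-4 (125 ± 76.4 CPM). Cluster n02-PGC-1 was above n12-GC-6 in 4 of 6 libraries. In n08-PGC-3 Pax6 was 14.8 ± 13.6 CPM, from 8 UMIs over all libraries.

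Etv1 shared that peak without being confined to it. It was 485 ± 81.8 CPM in n05-PGC-2 (378 to 619 CPM) and 448 ± 45.7 CPM in n02-PGC-1 (390 to 518 CPM), and each of the 2 was higher in 3 of the 6 libraries. In n03-GC-1 it was 340 ± 51.7 CPM and in n12-GC-6 275 ± 18.5 CPM. The low clusters were 4, among them n08-PGC-3 with 51.3 ± 25.1 CPM and n09-GC-3 with 28.0 ± 27.0 CPM.

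Sp8 was highest in n02-PGC-1, at 829 ± 80.4 CPM (lowest 696, median 819, highest 920 CPM), and n03-GC-1 had 653 ± 90.4 CPM. Immature neurons had 695 ± 68.2 CPM and were below n02-PGC-1 in 6 of 6 libraries. The granule clusters n11-GC-5 (412 ± 57.6 CPM) and n12-GC-6 (369 ± 92.2 CPM) were high as well. In n08-PGC-3 Sp8 was 22.1 ± 16.9 CPM from 12 UMIs, near the 18.8 ± 10.9 CPM of the microglia cluster MicroG1, which is taken as background here. The 3 periglomerular clusters therefore followed the order n02-PGC-1, n05-PGC-2, n08-PGC-3 in every library.

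Among the factors with UMIs in every adult-born cluster, Zic1 had the steepest profile. It was 821 ± 61.3 CPM in n03-GC-1 (767 to 932 CPM) and 649 ± 69.6 CPM in n02-PGC-1 (577 to 745 CPM), and n03-GC-1 was above n02-PGC-1 in 6 of 6 libraries. Cluster n09-GC-3 followed with 312 ± 128 CPM, spread from 138 to 457 CPM. In n11-GC-5 it was 97.6 ± 12 CPM, and in n05-PGC-2 11.3 ± 11.4 CPM from 11 UMIs, with none in control replicate 1. The highest mean was 72.6 times this lowest, a ratio that rests on these few UMIs. The level in n05-PGC-2 lay below the median of 26.1 CPM over the 22 non-neuronal clusters of the whole bulb. Immature neurons held only 81.4 ± 13.7 CPM.

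Zic2 was scarce. It had 33 UMIs in n02-PGC-1 and 37 in n03-GC-1, or 16 ± 7.57 and 12.8 ± 5.90 CPM, and was present in all 6 libraries of both. The other 10 adult-born clusters had means of at most 1.37 CPM, and in 5 of them, n08-PGC-3, n09-GC-3, n10-GC-4, n12-GC-6 and n14-GC-7, no UMI was found, which allows a level of up to 3.56 to 7.85 CPM (3 UMIs of all UMIs of the cluster, for counting error only). Zic5, which RefSeq places 9725 bases from Zic2 on chromosome 14, was better counted and had its highest levels in the same clusters, with 92.0 ± 19.0 CPM in n02-PGC-1 and 80.6 ± 23.4 CPM in n03-GC-1.

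**Figure D2:**
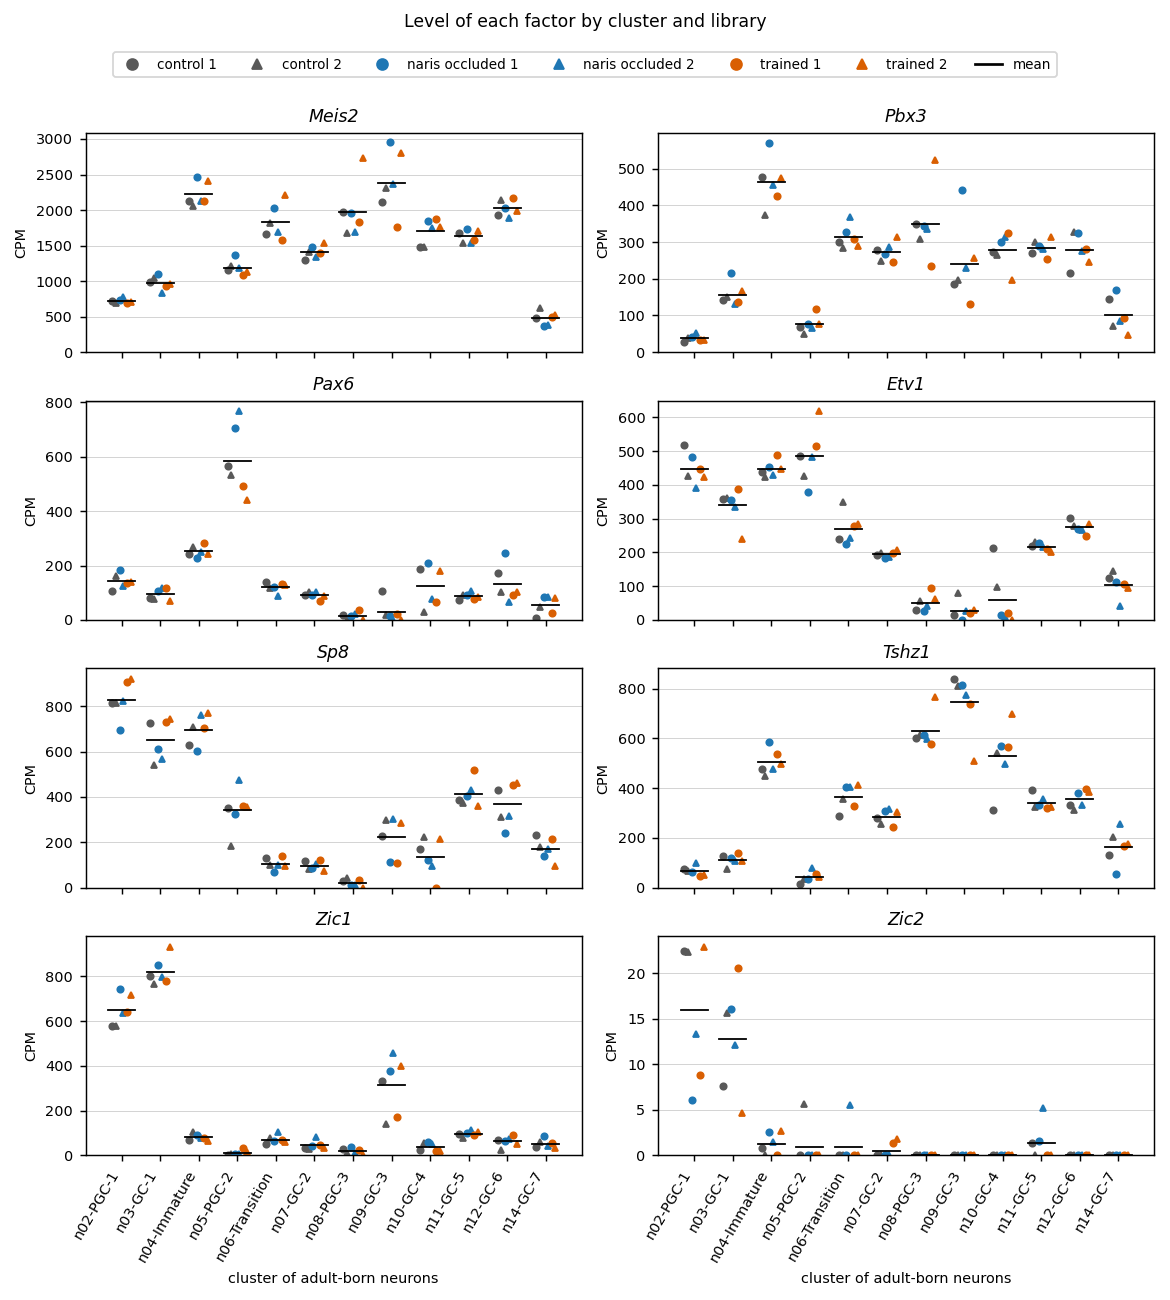
Level in CPM (vertical axis, linear from 0) of each factor in the 12 clusters of adult-born neurons, with a point for each library, circles for replicate 1 and triangles for replicate 2, and a bar at the mean. Pax6 in n05-PGC-2 lies between 441 and 768 CPM, above every other cluster, while Meis2 in n08-PGC-3, n09-GC-3 and n12-GC-6 overlaps.

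Read by cluster, the periglomerular cells separated cleanly. The calretinin cluster n02-PGC-1 was high for Pax6, Etv1, Sp8, Zic1 and Zic2 and low for Meis2, Pbx3 and Tshz1. The dopaminergic cluster n05-PGC-2 was high for Pax6 and Etv1 and low for Meis2, Pbx3, Tshz1 and Zic1. The calbindin cluster n08-PGC-3 was the reverse of n02-PGC-1 for 7 factors: high for Meis2, Pbx3 and Tshz1 and low for Pax6, Etv1, Sp8 and Zic1, with no UMI of Zic2. The calretinin granule cluster n03-GC-1 repeated the combination of n02-PGC-1 except for Pax6, which was 95.2 ± 22.0 CPM there and on both sides of the median.

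Of the remaining granule clusters, 4 were high for both Meis2 and Tshz1. Cluster n10-GC-4 was high for these alone, n09-GC-3 for these and Zic1, n11-GC-5 for these with Pbx3, Sp8 and Zic1, and n12-GC-6 for these with Pbx3, Etv1 and Sp8. The margins were small in several of these: Meis2 was 1.02 to 1.26 times the median in n10-GC-4, 1.05 to 1.20 times in n11-GC-5 and 1.23 to 1.49 times in n12-GC-6, and Tshz1 was 1.03 to 1.32 times in n11-GC-5 and 1.03 to 1.41 times in n12-GC-6. Pbx3 was 1.04 to 1.43 times the median in n11-GC-5 and 1.07 to 1.52 times in n12-GC-6. In n10-GC-4, with a like mean of 279 CPM, Pbx3 was variable through trained replicate 2 alone (0.89 of the median). In n07-GC-2 it was variable through naris occluded replicate 1 alone (0.96 of the median). Clusters n07-GC-2 and n14-GC-7 were high for no factor, and low for both Meis2 and Tshz1. The values of n07-GC-2 lay near the median for Meis2 (0.92 to 0.98 of it) and Tshz1 (0.87 to 0.97 of it) and well under it for Sp8 (0.23 to 0.45 of it), whereas n14-GC-7 was low for 6 factors. Cells of n14-GC-7 had a median of 690 UMIs with 29.7% mitochondrial and those of n07-GC-2 882 UMIs with 17.4%, against 1291 to 3533 UMIs and 6.35% to 9.52% in the other 8 clusters. The part of depth and mitochondrial share in these low levels was not tested. With cells of at least 1000 UMIs alone, 26 pairs were high, all of them among the 29, and 24 low. When clusters were instead ranked by how many of their thinned cells (500 UMIs each) held the factor, 23 pairs were high, 21 of them among the 29, and 18 low.

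Over the 10 granule and periglomerular clusters, the means of log2(CPM + 1) of Pbx3 and Tshz1 had a Pearson correlation of 0.86, those of Meis2 and Pbx3 0.76 and those of Meis2 and Tshz1 0.70. Zic1 with Zic2 gave 0.75 and Pax6 with Etv1 0.72. The most opposed pairs were Etv1 with Tshz1, at -0.79, and Pax6 with Tshz1, at -0.75. All are descriptions over 10 points that share libraries, depth and the clustering itself.

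At the level of single cells the factors were sparse. After thinning every cell to 500 UMIs, Meis2 was seen in 69.2% of n09-GC-3 cells and 27.4% of n02-PGC-1 cells, against 3.8% in MicroG1. Sp8 was seen in 31.6% of n02-PGC-1 cells, Zic1 in 30.3% of n03-GC-1 cells, Tshz1 in 31.1% of n09-GC-3 cells and Pax6 in 22.3% of n05-PGC-2 cells. In MicroG1 the same factors were seen in 1.27%, 0.633%, 1.90% and 0.127% of cells. Unthinned, the shares were 90.5% and 64.6% for Meis2 in n09-GC-3 and n02-PGC-1, 69.0% for Sp8, 58.3% for Zic1, 59.3% for Tshz1 and 57.0% for Pax6 in the clusters named. The MicroG1 cells had a median of 2336 UMIs, and those of n09-GC-3, n02-PGC-1, n03-GC-1 and n05-PGC-2 had 1291, 1846, 1416 and 1931. These shares count cells with a UMI and not cells that express the gene.

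The share of cells with both factors of a pair is given with the product of their single shares, for pairs picked after their values were seen. Both Meis2 and Tshz1 were found in 66 of 273 thinned cells of n09-GC-3 (24.2%, with a product of 21.6%) and in 42 of 279 of n08-PGC-3 (15.1%, 15.2%). Both Sp8 and Zic1 were found in 92 of 1037 cells of n02-PGC-1 (8.87%, 8.11%) and in 148 of 1914 of n03-GC-1 (7.73%, 7.95%). In immature neurons, Meis2 was found with Sp8 in 644 of 3910 cells (16.5%, 16.9%) and with Tshz1 in 585 (15.0%, 14%). These 6 shares lay near their products, and others did not: in immature neurons Pbx3 with Tshz1 was 5.45% against a product of 4.26%, Pax6 with Sp8 3.73% against 2.79% and Sp8 with Tshz1 4.53% against 5.71%. In n08-PGC-3, Pbx3 with Tshz1 was 6.45% against 4.37%. Pairs across the kinds of factors joined in granule clusters were seen in 0.844% to 12.2% of cells. That range holds the 8.87% and 7.73% of Sp8 with Zic1 above. In n09-GC-3, Zic1 was found with Meis2 in 22 of 273 cells (8.06%, 9.64%) and with Tshz1 in 13 (4.76%, 4.33%). Sp8 in n11-GC-5 was found with Meis2 in 137 of 1669 (8.21%, 8.66%) and with Tshz1 in 38 (2.28%, 2.37%). In n12-GC-6 it was found with Meis2 in 29 of 237 (12.2%, 9.74%) and with Tshz1 in 2 (0.844%, 2.23%). None of these pairs was tested.

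The cells behind 3 levels with a wide spread between libraries, picked after their values were seen, were also counted. Pax6 in n10-GC-4, 125 ± 76.4 CPM, came from 25 of 234 cells with 2.40 UMIs each, near the 2.63 UMIs per cell with a UMI in n05-PGC-2. Zic1 in n09-GC-3 came from 63 of 273 cells with 2.02 UMIs each. Etv1 in n10-GC-4 had 35 UMIs in 12 cells, and 23 of them lay in 1 cell.

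The adult-born clusters were placed by the study on a path from n04-Immature along 2 axes, A with n02, n03, n05, n08, n10, n11, n12 and n14, and B with n06, n07 and n09. Summed over the cells of each axis, 6 of the 8 factors were lower than in immature neurons in every library. The share of all genes that were lower was not taken. Cells of n04-Immature had a median of 1668 UMIs with 8.44% mitochondrial. Those of n06-Transition had 730 with 15.2% and those of n07-GC-2 882 with 17.4%, and these 2 clusters hold most cells of axis B. The part of depth and mitochondrial share in the differences was not tested. On axis A, Pbx3 was lower by 1.29 ± 0.13 on the log2(CPM + 1) scale (log2 difference -1.29, SD over 6 libraries) and Tshz1 by 1.15 ± 0.16 (-1.15), while Sp8 was closest to its immature level, at -0.49 ± 0.17. On axis B the order turned: Sp8 was lowest against immature neurons, at -2.64 ± 0.26, and Pax6 and Etv1 followed at -1.40 ± 0.17 and -1.11 ± 0.20, while Meis2 was at -0.46 ± 0.09 and Tshz1 at -0.55 ± 0.22. Zic1 was higher on axis A by 2.07 ± 0.29, in 6 of 6 libraries, and was on both sides of 0 on axis B (-0.19 ± 0.61, higher in 2 of 6 libraries). An axis pools clusters by their numbers of cells, and single clusters departed from it. On axis A, Pax6 in n05-PGC-2 and Sp8 in n02-PGC-1 were above immature neurons in 6 of 6 libraries, and by their means Etv1 was above them in n05-PGC-2 and n02-PGC-1 and Tshz1 in n08-PGC-3 and n10-GC-4. On axis B, Zic1 in n09-GC-3 was above immature neurons in 6 of 6 libraries, with 138 to 457 CPM against 66.1 to 102 CPM, and the means of Meis2 and Tshz1 were also above theirs in that cluster. In n14-GC-7, n12-GC-6, n10-GC-4, n08-PGC-3 and n05-PGC-2, which are 5 of the 8 clusters of axis A, the mean of Zic1 was below the 81.4 CPM of n04-Immature, against 649 CPM in n02-PGC-1 and 821 CPM in n03-GC-1.

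**Figure D3:**
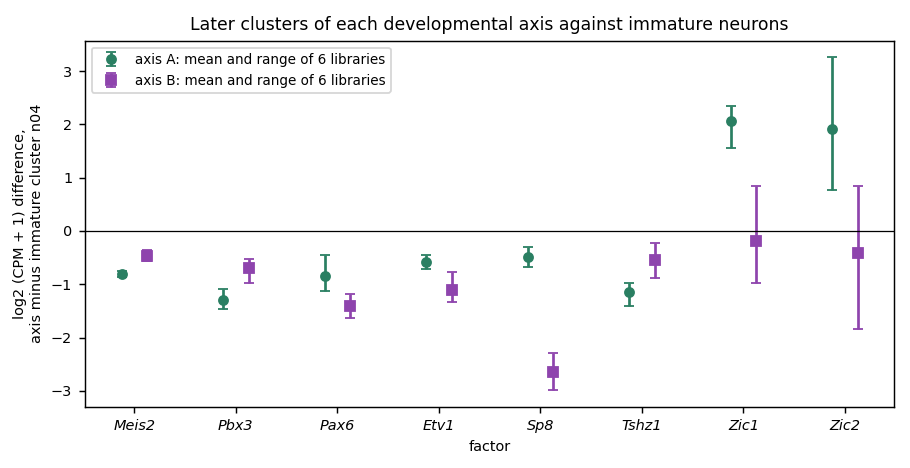
Difference of log2(CPM + 1) between the summed later clusters of each axis and n04-Immature, for each factor, as the mean (symbol) and the lowest and highest of the 6 libraries (bars). Sp8 lies at -0.49 on axis A and -2.64 on axis B, and Zic1 and Zic2 are the factors above 0 on axis A.

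Outside the adult-born neurons, the mitral and tufted cell clusters n15 to n17, which are the projection neurons of the bulb, held lower levels of Meis2 than most interneurons. The best counted of them, n17-M/TC-3, had 202 ± 44.0 CPM, while n16-M/TC-2 had 318 ± 207 CPM and n15-M/TC-1 519 ± 221 CPM from 82 UMIs. In n17-M/TC-3 Pax6 was 17.0 ± 8.99 CPM and Zic1 38.5 ± 13.9 CPM. The interneurons of the external plexiform layer, n18-EPL-IN, had Meis2 at 380 ± 107 CPM from 67 UMIs.

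The other annotation, over the whole bulb, had 16 clusters of neurons (N1 to N16) and 22 of other cells, and several factors had a second home among the latter. Zic1 was 417 ± 49.6 CPM in the mural cluster Mural2, 370 ± 54.6 CPM in the mesenchymal cluster Mes1, 280 ± 29.0 CPM in Mural1 and 256 ± 83.5 CPM in Mes2, against a median of 26.1 CPM over the 22 clusters. Zic2 was 24.9 ± 13.9 CPM in Mes2 and 23.6 ± 17.3 CPM in Mural1, against 14.8 ± 2.18 CPM in N13, its highest cluster of neurons, and in endothelial cluster EC1 it was 14.3 ± 5.34 CPM from 65 UMIs. Pax6 was 360 ± 58.8 CPM in Astro2 and 221 ± 13.2 CPM in Astro1, 2 clusters of astrocytes. Etv1 had its highest mean of the bulb in myelinating oligodendrocytes (MyOligo), at 572 ± 97.3 CPM from 1670 UMIs, above the 479 ± 28.5 CPM of N1. The highest means in the 22 non-neuronal clusters were 284 CPM for Meis2, 110 CPM for Pbx3, 146 CPM for Sp8 and 127 CPM for Tshz1.

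**Figure D4:**
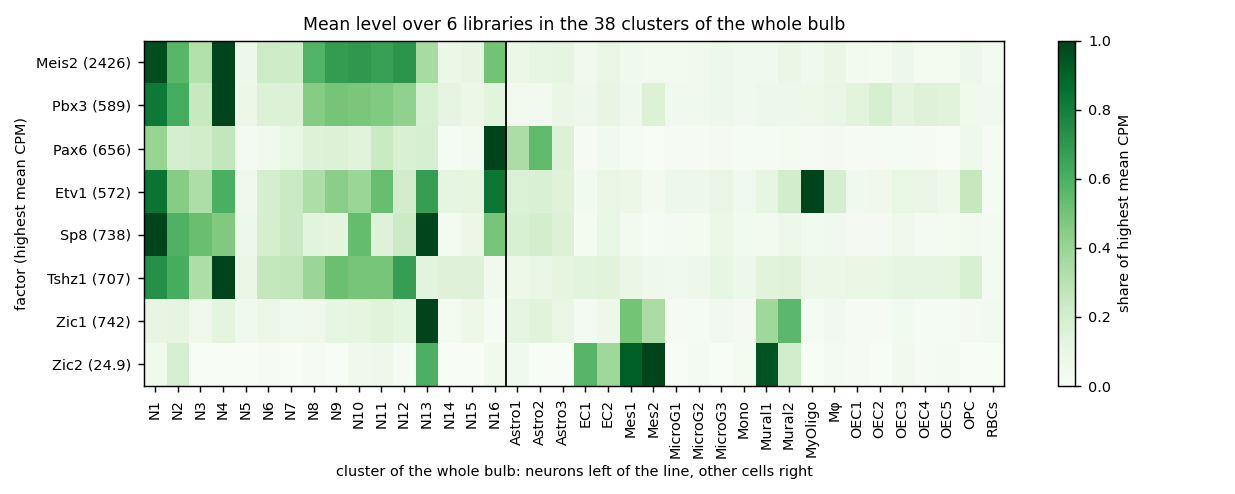
Mean CPM over 6 libraries of each factor (rows, with the highest mean in brackets) in the 38 clusters of the whole bulb (columns, neurons left of the line), colored as a share of the highest mean in the row. Etv1 peaks in MyOligo, and Zic1 and Zic2 are found in mural and mesenchymal clusters as well as in N13.

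Most similar genes were sought by the Pearson correlation of mean log2(CPM + 1) over the 18 neuronal clusters, among 7021 genes with at least 50 CPM in some cluster. For 3 factors the first of them was the neighbour on the chromosome. Meis2 was most like G630016G05Rik (r = 0.95), whose RefSeq span on chromosome 2 (116067225 to 116085911) overlaps that of Meis2 (115861264 to 116067537) by 313 bases. Zic1 was most like Zic4 (r = 0.88), whose span on chromosome 9 (91365631 to 91389351) overlaps that of Zic1 (91358058 to 91365768) by 138 bases, so that the Zic1 sequence printed above lies inside the Zic4 span. Tshz1 was most like Zadh2 (r = 0.90), 417 bases away on chromosome 18. Zic4 led in the same 3 clusters as Zic1, where n03-GC-1 had 90.9 ± 21.0 CPM, n02-PGC-1 had 52.0 ± 14.4 CPM and n09-GC-3 had 32.5 ± 23.7 CPM. G630016G05Rik was highest in n04-Immature, with 54.1 ± 5.34 CPM, and Zadh2 in n09-GC-3, with 68.1 ± 36.9 CPM. Within single libraries r ran from 0.56 to 0.88 for Meis2 and G630016G05Rik, from 0.63 to 0.86 for Zic1 and Zic4 and from 0.037 to 0.77 for Tshz1 and Zadh2. Meis2 and Zic1 are on the minus strand, and the overlaps lie where their transcription begins, while UMIs were counted at the 3′ end of mRNA. Whether counting used strand is not stated in the sources, and whether reads of overlapping genes were mixed was not tested.

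For Pbx3, Pax6, Etv1 and Sp8, none of the 3 most similar genes adjoined the factor, and Gm11549, the gene most like Zic2, could not be placed with the RefSeq table used. Pbx3 followed Adarb2 (0.93), G630016G05Rik (0.87) and Meis2 (0.86), and Sp8 followed Dlx5 (0.90), Gm10282 (0.87) and Dlx6 (0.85), where Dlx5 and Dlx6 are homeodomain factors of GABAergic neurons. Pax6 was most like Sall3 (0.82), Nr2f1 (0.81) and Gm27239 (0.80), and Etv1 most like Tnrc18 (0.83), Pou3f4 (0.81) and Sall3 (0.81). Zic2 came with Gm11549 (0.96), Adora2a (0.95) and Nccrp1 (0.94) on its few UMIs. Behind the neighbour, Meis2 had Maml3 (0.91) and Ric1 (0.90), Tshz1 had Nedd4l (0.84) and Sox1 (0.83), and Zic1 had Tac2 (0.85) and Rgs3 (0.85). These are correlations across clusters of the same libraries and carry no p.

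Among 35 other factors known from bulb interneurons, 16 had their highest mean of the 12 clusters in n04-Immature. Of the 8 members Pbx3 alone did, but Meis2 in n09-GC-3 was above n04-Immature in only 4 of 6 libraries. The list was chosen by name and holds factors of immature neurons such as Sox11, and the share over all genes was not taken. Gsx2 counted among the 16 with 1.39 ± 1.15 CPM. Dlx1, Dlx2, Sox4, Sox11 and Nfib, named after their values were seen, were among the 16.

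Neither for deprivation nor for training did a factor pass the test in any cluster. UMI sums per cluster and library were tested with edgeR's quasi-likelihood test, in each of the 12 adult-born clusters by itself. The filter on low counts was passed by 71 pairs of factor and cluster: Meis2 and Pbx3 in 12 clusters, Sp8 and Tshz1 in 11, Pax6 in 9, Etv1 and Zic1 in 8 and Zic2 in none. At a Benjamini-Hochberg adjusted p under 0.05 over all genes of a cluster, 0 of 71 pairs were called in naris occluded against control, 0 of 71 in trained against control and 0 of 71 in trained against naris occluded. The background was 0.0593%, 0.0489% and 0.183% of 57303 tests of all genes, so a count of 0 members lies near it. Of all tests, 0.0122% were called higher and 0.0471% lower in naris occluded against control, 0.0419% higher and 0.00698% lower in trained against control, and 0.134% higher and 0.0489% lower in trained against naris occluded. At an unadjusted p under 0.05, edgeR gave 3, 0 and 3 of the pairs, or 4.23%, 0% and 4.23%, against 4.76%, 5.48% and 7.14% of all tests. DESeq2 gave 0, 0 and 1 of the pairs and called 0. The median size of the log2 fold change was 0.16, 0.13 and 0.16 over the members and 0.21, 0.22 and 0.24 over all genes tested. Within 1.5-fold lay 67, 67 and 65 of the 71 values, whose median standard errors were 0.23, 0.23 and 0.24. The libraries are pools, 2 in each group, and the test measures the spread between pools, which includes the difference between sexes.

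For each factor the cluster of its highest level is given, with the library levels before the fold changes of the test, which uses TMM-scaled library sizes. Pax6 in n05-PGC-2 was 567 and 535 CPM in control, 708 and 768 CPM in naris occluded and 493 and 441 CPM in trained libraries. The 3 groups did not overlap, with the naris occluded libraries highest, but the log2 fold changes of 0.41 ± 0.23 (SE) for occlusion, -0.24 ± 0.24 for training and -0.65 ± 0.24 for training against occlusion had edgeR adjusted p of 0.998, 0.999 and 0.952. Etv1 in the same cells was 486 and 428, 378 and 483, and 514 and 619 CPM, with the trained libraries highest. Its log2 fold changes were -0.10 ± 0.25, 0.29 ± 0.24 and 0.38 ± 0.25, and no adjusted p was under 0.99.

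Meis2 in n09-GC-3 was 2120 and 2310 CPM in control, 2954 and 2362 CPM in naris occluded and 1756 and 2809 CPM in trained libraries. The trained libraries were the lowest and the second highest, and the log2 fold changes were 0.20 ± 0.24, 0.02 ± 0.24 and -0.19 ± 0.24. Tshz1 in n09-GC-3 was 840 and 810, 816 and 774, and 737 and 511 CPM. Both trained libraries were below the other 4, and the log2 fold changes were -0.12 ± 0.28, -0.48 ± 0.29 and -0.36 ± 0.29. For both factors the edgeR adjusted p was 0.93 or more.

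Pbx3 in n04-Immature was 476 and 373, 570 and 456, and 424 and 475 CPM in control, naris occluded and trained libraries. The groups overlapped, with log2 fold changes of 0.24 ± 0.14, 0.07 ± 0.14 and -0.17 ± 0.13. Sp8 in n02-PGC-1 was 813 and 814, 696 and 824, and 905 and 920 CPM. The trained libraries were highest, with log2 fold changes of -0.12 ± 0.14, 0.14 ± 0.14 and 0.26 ± 0.15 and a lowest edgeR adjusted p of 0.802. Zic1 in n03-GC-1 was 801 and 767, 849 and 797, and 779 and 932 CPM, with overlapping groups and log2 fold changes of 0.04 ± 0.14, 0.09 ± 0.14 and 0.05 ± 0.14.

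The lowest p of any pair belonged to Sp8 in n12-GC-6, which is named after its values were seen. It was 430 and 311 CPM in control, 240 and 317 CPM in naris occluded and 455 and 463 CPM in trained libraries, from 34 to 88 UMIs a library. Trained against naris occluded gave a log2 fold change of 0.74 ± 0.24 with an unadjusted p of 0.0022 and an edgeR adjusted p of 0.266. Of 227 tests of the 35 other factors in each comparison, 0 were called.

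**Figure D5:**
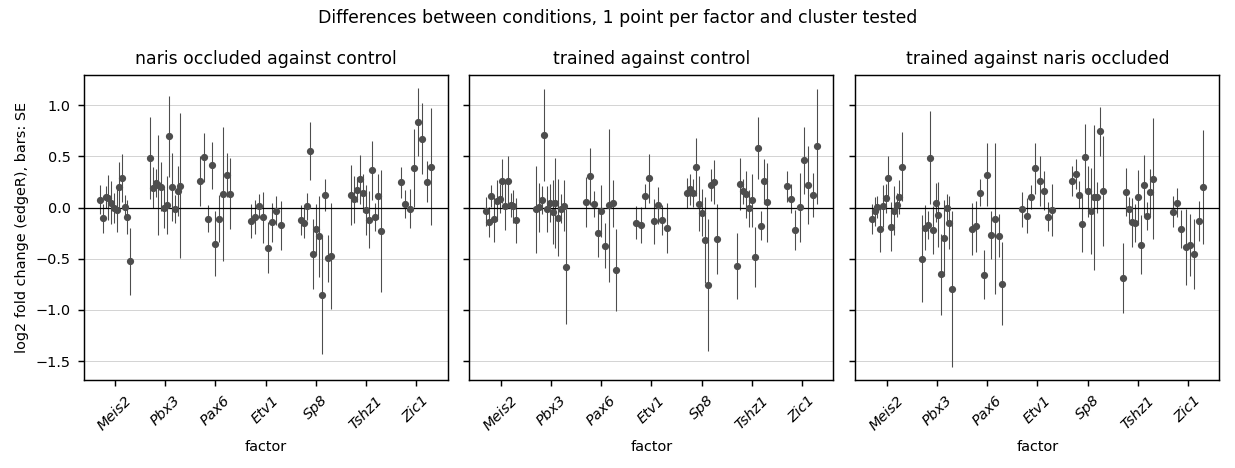
Log2 fold changes (vertical axis) with standard errors (bars) from edgeR for 7 factors, with a point for each cluster tested, in the 3 comparisons of conditions. The values lie between -0.85 and 0.83 and none had an adjusted p under 0.05.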

How the data were processed

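Single cells of dissociated bulbs were sequenced with a droplet method that counts UMIs at the 3′ end of mRNA. Per the labels' processing notes the authors used Cell Ranger 2.0.0 with mm10 and Seurat 2.2.1. The deposited table holds raw UMI counts of 52549 barcodes, and deposited annotations give the library, the cluster and the mitochondrial fraction of each cell. Barcodes without a cluster (1123) were left out, and a table of scaled values was not used. The annotation names the clusters of neurons in the whole bulb N1 to N16, and these names are used here. Its numbering of neuron, astrocyte, mesenchymal and microglia clusters differs from that of the study, so that equal names need not mean equal clusters. Doublets had been taken out by the authors, per the methods, and no further caller was run. Counts were summed per cluster and library. Levels are CPM over all genes, and a pseudocount of 1 CPM was added before logs. Tests used edgeR 4.0.16 (R 4.3.3; TMM factors, filterByExpr, glmQLFTest, group as the only term), tested on simulated data, and DESeq2 1.42.0 as an alternative. The other alternatives were a replicate block, RLE factors, no filter, cells of at least 1000 UMIs, whole-bulb clusters and each library left out. Where a library was left out, the lone sample of its group was taken to vary like the others. Depth per library, given above, limits the precision of low levels, and counts cover sampling of captured molecules only. The printed genes follow a rule: all members everywhere, log2 fold changes for those called and else in the cluster of the highest mean, and the 3 most similar genes. Members and lists were chosen with earlier results of these data known. Start sites, spans and sequences are from RefSeq tables of GRCm38.p6, where the table of start sites held 5 of the 8 members.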

Additional observations from a re-analysis of the deposited data

Results flagged for a closer look

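The 1123 barcodes of the count table that carry no cluster were in no comparison above, and they held UMIs of every factor, more than the 3 counts that a count of 0 allows. Meis2 had 1990 UMIs, Tshz1 619, Etv1 481, Pbx3 421, Sp8 358, Zic1 313, Pax6 277 and Zic2 7. Their median total was 2327 UMIs, and Meis2 made up 659 CPM. The study's methods state that doublets were removed, and whether these barcodes are among those is not stated.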

How the results depend on the processing

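The 29 high pairs stayed between 21 and 34 under the other settings except for the 1.5-fold margin, which left 12, and were 29 to 31 with a library left out. By the rule, a high pair must stay high with a library left out, with 5 of 6 libraries required or with controls alone. The 1.5-fold margin can only take pairs away. None of these settings could turn a high pair low. In the settings that recomputed the levels or the median, 21 to 28 pairs were high, and no pair changed from high to low. With all libraries, members called stayed at 0 in all comparisons except 1 with no filter on low counts. This was Etv1 in n10-GC-4 in naris occluded against control (log2 fold change -3.74, edgeR adjusted p = 0.00756), where 23 of its 35 UMIs lay in 1 cell. With a library left out, the exception was Sp8 in n10-GC-4 in trained against control without trained replicate 2. The trained group was then a lone library with 0 UMIs of Sp8. The controls had 170 and 223 CPM and the library left out 214 CPM. In naris occluded against control, trained against control and trained against naris occluded, 34, 28 and 105 genes were called. DESeq2 called 12, 3 and 21, no filter 81, 69 and 202, whole-bulb clusters 101, 100 and 799, and leaving out a library 38 to 99, 23 to 94 and 77 to 230. The replicate block called 51, 54 and 192 genes and 0 members. The replicate number gives the sex of the pool, which is shared by all groups. Deviations of libraries with the same number correlated by 0.017 to 0.19 within clusters, all above 0, and were not treated as pairs in the main test. Its spread therefore holds the difference between sexes, which the replicate block takes out.

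For the 21 log2 fold changes of the members in the cluster of their highest mean, 231 values were recomputed, of which 221 kept their sign and 0 passed the threshold. The sign turned only with a library left out: Meis2 in n09-GC-3 for trained against control (-0.38 to 0.27) and against naris occluded (-0.59 to 0.050), Pbx3 in n04-Immature for trained against control (-0.079 to 0.25), Etv1 in n05-PGC-2 (-0.28 to 0.052) and Sp8 in n02-PGC-1 (-0.25 to 0.014) for naris occluded against control, and Zic1 in n03-GC-1 for trained against control (-0.023 to 0.20) and against naris occluded (-0.059 to 0.16). As a mean over single cells, the Zic1 level in n03-GC-1 was 758 CPM. The causes were not tested.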
